A study of Mus musculus with 12 samples.

Results

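The replication-dependent core histone genes of the mouse encode the H2A, H2B, H3 and H4 proteins of the nucleosome and lie in the clusters Hist1 on chromosome 13, Hist2 on chromosome 3, Hist3 on chromosome 11 and Hist4 on chromosome 6. They were taken by symbol, as the protein-coding genes of GENCODE M21 whose symbol names a Hist1 to Hist4 gene of type H2A, H2B, H3 or H4. Of 61 such genes among 35523 genes measured, 59 had at least 10 reads over the libraries and were among the 18028 genes tested. They comprise 17 H2A, 17 H2B, 12 H3 and 13 H4 genes, with 46 in Hist1, 10 in Hist2, 2 in Hist3 and 1 in Hist4. Both genes that were left out, Hist1h2aa and Hist1h2ba, had 0 reads. The genes just inside the limit were Hist3h2ba with 11 reads and Hist1h2ao with 35 reads in all.

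RNA-seq was performed on primary cardiac fibroblasts of adult wild type C57BL/6J mice, female and male, in a 2 by 2 design with 3 biological replicates in each of 4 groups. Cells were transfected with a scrambled siRNA or with siRNA against histone H1.0, a linker histone encoded by H1f0, were kept in 0.1% serum for 24 h as part of the culture, and received vehicle or TGF-β at 10 ng/ml, a cytokine that activates fibroblasts. The groups are called scramble vehicle, scramble TGF-β, H1.0 siRNA vehicle and H1.0 siRNA TGF-β, and no group was left untransfected. The labels do not say which animals gave which culture, so that p-values measure the spread between these cultures. The RNA was depleted of ribosomal RNA and not selected for poly(A), so that mRNAs without a poly(A) tail could be read.

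Replication-dependent core histone genes are transcribed in S phase, when new nucleosomes are built on the copied DNA. Their mRNAs lack introns and end in a conserved stem-loop in place of a poly(A) tail. The stem-loop binding protein SLBP carries these mRNAs through processing, export and translation, while NPAT and FLASH (Casp8ap2) act at the histone locus body, where the genes are transcribed and the pre-mRNAs cut. Some of the genes also yield longer, polyadenylated transcripts, which are known from cells that have stopped dividing.

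The stem-loop is shown because it is what sets these mRNAs apart from others and because it divides the annotated gene models that the reads were counted on. A histone stem-loop was found in the annotated transcripts of 40 of the 61 genes, against 35 of 21584 other protein-coding genes (0.162%). Of the remainder, 14 had gene models that stop at or near the stop codon, so that no stem-loop could be read there, and 7 had a 3′ untranslated region without it. It occurred in 6 forms, given here with up to 5 bases on either side, read 5′ to 3′ from the GENCODE M21 transcripts and written as DNA, with the stem-loop in capitals.
Hist2h2aa2: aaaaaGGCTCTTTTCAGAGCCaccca
Hist1h4h: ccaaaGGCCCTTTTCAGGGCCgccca
Hist1h3c: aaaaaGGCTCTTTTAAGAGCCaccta
Hist2h4: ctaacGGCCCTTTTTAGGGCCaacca
Hist1h4j: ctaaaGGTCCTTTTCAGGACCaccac
Hist2h2ac: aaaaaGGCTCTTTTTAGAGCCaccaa
On GRCm38 these stem-loops lie at chr3:96239784.0-96239799.0 (minus strand), chr13:23531458.0-23531473.0 (plus strand), chr13:23745047.0-23745062.0 (minus strand), chr3:96262939.0-96262954.0 (minus strand), chr13:21735437.0-21735452.0 (plus strand) and chr3:96220418.0-96220433.0 (minus strand). The form of Hist2h2aa2 was shared by 23 genes of types H2A, H2B and H3. That of Hist1h4h was found in 7 genes, all of type H4, and that of Hist1h3c in 5 genes of types H2B and H3. The forms of Hist2h4 and Hist1h4j were each found in 2 H4 genes, and that of Hist2h2ac in 1 gene.

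Promoters are shown because most of the genes moved together. A RefSeq promoter window of build GRCm38.p6 was matched for 56 of the 61 genes, and its 250 bases upstream of the start were searched on both strands for TATAAA, for CCAAT and for the octamer ATTTGCAT. TATAAA was present in 44.6% of the histone windows and in 12.4% of all 32851 windows, CCAAT in 80.4% and 33.8%, and the octamer in 23.2% and 1.60%. All 18 H2A and all 16 H2B windows held CCAAT, as did 8 of 10 H3 and 3 of 12 H4 windows. The octamer was found in 7 H2A and 6 H2B windows and in 0 H3 and 0 H4 windows. The 120 bases just upstream of the start are printed for Hist1h2ab, Hist1h4k, Hist2h3c2 and Hist3h2a. With the siRNA under TGF-β, Hist1h2ab, Hist1h4k and Hist2h3c2 were all lower, and only Hist3h2a was higher. A link between these letters and the changes was not tested. Matches to the searched letters on either strand are in capitals.
Hist1h2ab: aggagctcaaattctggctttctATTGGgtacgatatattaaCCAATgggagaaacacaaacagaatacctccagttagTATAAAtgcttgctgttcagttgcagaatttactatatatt
Hist1h4k: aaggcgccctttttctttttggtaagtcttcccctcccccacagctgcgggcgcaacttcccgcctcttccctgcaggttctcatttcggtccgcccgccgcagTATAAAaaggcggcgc
Hist2h3c2: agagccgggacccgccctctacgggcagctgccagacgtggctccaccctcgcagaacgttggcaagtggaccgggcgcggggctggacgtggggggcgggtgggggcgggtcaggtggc
Hist3h2a: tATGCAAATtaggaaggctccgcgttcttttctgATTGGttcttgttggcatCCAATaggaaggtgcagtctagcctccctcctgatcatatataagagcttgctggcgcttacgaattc
These stretches lie at chr13:23750968-23751087 on the plus strand, chr13:21750554-21750673 on the minus strand, chr3:96239128-96239247 on the minus strand and chr11:58954565-58954684 on the plus strand. The stretch of Hist1h2ab held TATAAA and CCAAT on both strands, that of Hist1h4k held TATAAA alone, that of Hist2h3c2 held none of the searched letters, and that of Hist3h2a held the octamer and CCAAT.

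Libraries held from 19.9 to 36.3 M estimated counts. The 3 H1.0 siRNA TGF-β libraries and H1.0 siRNA vehicle replicate 3 were the deepest, at 35.5 to 36.3 M. The core histone genes took from 0.0859% to 0.122% of the counts of a scramble library and from 0.0504% to 0.0766% of the counts of an siRNA library, so that no siRNA library reached any scramble library. H1f0, the targeted gene, had normalized read counts of 2515, 3033 and 2648 in scramble vehicle, 2832, 2922 and 2806 in scramble TGF-β, 980.1, 1075 and 600.4 in H1.0 siRNA vehicle and 843, 876 and 510.3 in H1.0 siRNA TGF-β, a log2 fold change with the siRNA of -1.63 with vehicle and -1.94 with TGF-β (edgeR, adjusted p = 2.0e-04 and 5.8e-05). The knockdown was partial at the RNA level. All 10 fibroblast markers were detected in every group. They summed to 17185 to 18294 TPM in scramble vehicle and 14089 to 15874 in scramble TGF-β. In the siRNA groups they summed to 20285.5 to 20908 with vehicle and 15937.5 to 18135 with TGF-β. The fibroblast sum was thus higher with the siRNA in both treatments without overlap. Of the single fibroblast markers, 7 of 10 had a log2 fold change below 0 with the siRNA and vehicle and 6 of 10 under TGF-β. Markers of other cells were present too, and were all above 0 reads. The 12 macrophage markers summed to 1567 to 1740.1 TPM in scramble vehicle, 1154 to 1224 in scramble TGF-β, 1327 to 1418 in H1.0 siRNA vehicle and 708 to 1076 in H1.0 siRNA TGF-β. The 12 cardiomyocyte markers summed to 134 to 198 TPM in the scramble libraries and to 14.8 to 24.5 TPM in the siRNA libraries. The 8 mural markers summed to 24.6 to 58.9 TPM in scramble vehicle, 30.5 to 74.9 in scramble TGF-β, 11.5 to 22.9 in H1.0 siRNA vehicle and 11.8 to 29.0 in H1.0 siRNA TGF-β. The 10 endothelial markers were at 50.4 to 81.0 TPM and 50.5 to 65.2 TPM in the scramble groups and at 46.9 to 60.6 TPM and 40.2 to 47.3 TPM in the siRNA groups, vehicle first. The macrophage, mural and cardiomyocyte sums were lower with the siRNA in both treatments and the endothelial sum under TGF-β, in each case without overlap. Single markers did not all follow the sums. With the siRNA and vehicle, 4 of 12 macrophage markers had a log2 fold change below 0 (median 0.10). Under TGF-β 7 of 12 did (median -0.10), as did 5 of 10 endothelial markers (median 0.10). Of the mural markers tested, 7 of 7 were below 0 with vehicle and 6 of 7 under TGF-β. Of the cardiomyocyte markers tested, 8 of 10 were below 0 in both. In bulk RNA, fewer cells of a type and less RNA per cell cannot be told apart, and the part of other cells in the results below was not tested.

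Per unit of length, the most abundant genes were Hist2h2aa2, Hist1h4m, Hist1h4h, Hist1h4k and Hist1h2bc. In scramble vehicle cells, Hist2h2aa2 was at 369 ± 24.6 TPM (SD, n = 3), Hist1h4h at 330.1 ± 7.95 TPM and Hist1h2bc at 232 ± 36.9 TPM (SD, n = 3 each). Among H3 genes the highest mean level over the 12 libraries was that of Hist1h3i at 82.5 TPM, followed by Hist2h3b at 79.2 TPM and Hist1h3b at 64.4 TPM. H4 genes made up 40.2% ± 1.08 of the TPM of all core histone genes in scramble vehicle cells, H2B genes 24.3% ± 1.73, H2A genes 22.6% ± 0.358 and H3 genes 12.9% ± 0.632 (SD, n = 3). The share of H3 genes was 14.6% ± 0.426 in scramble TGF-β, 10.3% ± 0.860 in H1.0 siRNA vehicle and 9.68% ± 0.125 in H1.0 siRNA TGF-β. It was higher in every scramble library than in any siRNA library. A TPM value depends on the annotated length, and gene models that stop at the stop codon, such as that of Hist1h4k, give higher values than models with untranslated regions, so that the order of genes is that of the annotation used. Many of these genes are nearly alike in sequence. For 22 of the 59, at most 30% of their stretches of 31 bases occurred in no other quantified gene, and their reads were divided between genes by the quantification. Hist2h2aa2 had 0% of its own and Hist1h2ap 6.64%, while Hist1h2bc had 66.5%, Hist3h2a 67.9% and Hist4h4 87.2%. Sums over a type do not rest on how reads were divided within the type, but they do rest on the division with genes outside the set, in which 89.3% of the stretches of Hist1h2ai and 59.0% of those of Hist2h2aa2 also occurred.

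Summed over all 59 genes, core histone reads were highest in scramble TGF-β cells and lowest in H1.0 siRNA TGF-β cells. The summed normalized read count was 25044, 22773 and 26809 in the scramble vehicle libraries, 30445, 33147 and 33594 with TGF-β, 19712, 16390.1 and 17423 in the H1.0 siRNA vehicle libraries and 15584, 14887 and 14204 with TGF-β. No libraries of any pair of these groups overlapped. With TGF-β the sum was 30.2% higher in scramble cells, and 16.5% lower in siRNA cells. In TGF-β-treated cells the siRNA sum was 54.0% below the scramble sum, and with vehicle 28.3% below it. These sums are a description and were not tested.

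H3, whose genes had the lowest summed reads of the 4 types, had the widest ratios of sums with the siRNA and with TGF-β in scramble cells. The H3 sum was 4114, 3441 and 4407 in scramble vehicle, 5727, 6029.6 and 5883 in scramble TGF-β, 2630.0, 1954 and 1997 in H1.0 siRNA vehicle and 1750.3, 1664 and 1645 in H1.0 siRNA TGF-β, and the 4 groups did not overlap. With the siRNA under TGF-β the sum of H3 was 71.3% lower, that of H2A 52.7%, that of H2B 50.9% and that of H4 47.9%. With TGF-β in scramble cells the sums were 47.5% higher for H3, 36.5% for H2A, 33.7% for H2B and 16.0% for H4. All 4 types were without overlap in both of these comparisons. In siRNA cells the TGF-β sums were lower for H3 (23.1%), H4 (26.5%) and H2A (16.2%), while those of H2B overlapped, at 4839 ± 633 with vehicle and 4892 ± 359 with TGF-β (SD, n = 3). On the TPM scale the log2 ratio for the siRNA with TGF-β was larger than on read counts, -1.47 against -1.12 over all genes. For TGF-β in siRNA cells, the H2A sums overlapped on TPM and those of H2B did not.

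**Figure D1:**
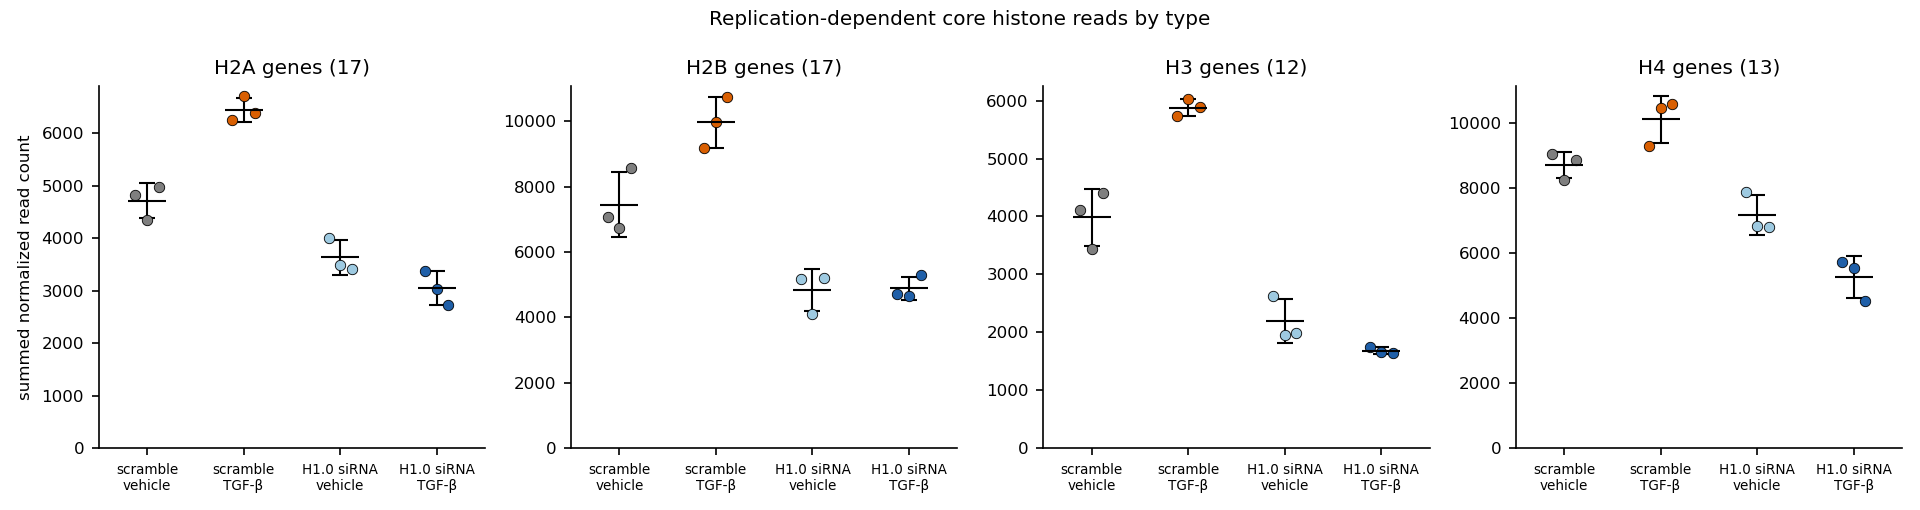
Summed normalized read counts (vertical axis, reads scaled to the mean library) of the H2A, H2B, H3 and H4 genes in the 4 groups. Each point is 1 library, and bars give the mean and SD of 3 libraries. In each panel the 3 scramble TGF-β libraries lie above every other library, and the H3 sum of H1.0 siRNA TGF-β libraries lies between 1645 and 1750.3.

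Under TGF-β, 48 of the 59 core histone genes were lower with H1.0 siRNA and 1 was higher at an adjusted p under 0.01 (edgeR's quasi-likelihood test, as for every adjusted p here), against 11.3% of all genes lower and 13.0% higher. The median log2 fold change of the 59 was -1.78, against 0.04 for all genes tested. In 51 genes every siRNA library lay below every scramble library and in 1 above, so that 52 were without overlap, against 46.5% of all genes counted in either direction. By type, 13 of 17 H2A genes (median -1.96), 13 of 17 H2B genes (median -1.86), 11 of 12 H3 genes (median -1.97) and 11 of 13 H4 genes (median -0.76) were lower.

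The lowered H3 genes included those with the widest fold changes. Hist2h3c2, at chr3:96238108-96239127 in the Hist2 cluster, had normalized read counts of 974, 959.7 and 927 in scramble TGF-β and 124, 103 and 144 in H1.0 siRNA TGF-β. Its log2 fold change, with its standard error (SE) here and after, was -2.94 (SE 0.19, adjusted p = 1.8e-06). Hist1h3a (chr13:23761853-23762386) had 302, 328 and 359 against 59.7, 43.2 and 44.3, a log2 fold change of -2.75 (SE 0.25, adjusted p = 1.3e-05). The siRNA libraries of both genes were far below those of the scramble cells, with a gap wider than the spread in either group. Hist1h3c (chr13:23744973-23745602) fell by 2.69 on the log2 scale, from 541 ± 32.5 to 83.6 ± 10.2 reads (SD, n = 3, adjusted p = 2.3e-06 from edgeR). The H3 genes with the highest levels fell less, with log2 fold changes of -1.88 for Hist1h3i, -2.09 for Hist1h3b and -1.67 for Hist2h3b. The H3 gene that was not called was Hist2h3c1, in the same cluster as Hist2h3c2, with Hist2h2aa2 and Hist2h2aa1 between them. It had 379, 328 and 386 reads in scramble TGF-β and 285, 258 and 367 in H1.0 siRNA TGF-β, which overlapped (log2 fold change -0.27, adjusted p = 0.26 from edgeR). Of their stretches of 31 bases, 35.8% for Hist2h3c2 and 64.6% for Hist2h3c1 occurred in no other quantified gene.

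Among H2A genes, Hist1h2af (chr13:23533906-23534304) had 225, 236 and 179 reads in scramble TGF-β and 32.6, 46.3 and 20.2 in H1.0 siRNA TGF-β, a log2 fold change of -2.69 (SE 0.29, adjusted p = 4.0e-05). Hist1h2ap (chr13:21833026-21833507), the second most abundant H2A gene by TPM, had 810.2, 996 and 914 against 210.3, 153 and 151, a log2 fold change of -2.40 (SE 0.19, adjusted p = 5.4e-06). For Hist1h2ab (chr13:23751126-23751598) the counts were 630.3, 725 and 695 against 177, 167 and 191, a log2 fold change of -1.94 (SE 0.15, adjusted p = 4.1e-06). In all 3 genes the lowest scramble library was more than 2 times the highest siRNA library. The most abundant H2A gene, Hist2h2aa2 (chr3:96239749-96240276), fell far less, from 1783, 1737 and 1774 to 1479.5, 1288 and 1070.3 reads, a log2 fold change of -0.46 (SE 0.11, adjusted p = 0.005). The Hist2h2aa2 call was lost in 5 of the alternative settings.

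The lowered H2B genes were led by Hist1h2bl at -2.59 and Hist1h2bn at -2.52, and Hist1h2bg, the third by TPM among H2B genes, fell by 1.41 on the log2 scale. Hist2h2bb (chr3:96269752-96270132) had 528, 502 and 504 reads in scramble TGF-β and 267, 253 and 227 in H1.0 siRNA TGF-β, a log2 fold change of -1.04 (SE 0.09, adjusted p = 8.0e-06). Hist1h2bc (chr13:23684199-23692908), which held more reads than any other core histone gene, was not called. It had 3335, 2996 and 3507 reads in scramble TGF-β and 2585, 2513 and 3435 in H1.0 siRNA TGF-β, so that the groups overlapped (log2 fold change -0.21, SE 0.17, adjusted p = 0.4). Its annotated transcript of 1156 bases holds no stem-loop. Hist2h2be, whose transcript of 2620 bases also lacks it, had 54.1, 66.2 and 89.7 and 73.7, 67.1 and 97.1 reads in the same groups (log2 fold change 0.18, SE 0.21, adjusted p = 0.56). The 2 other uncalled H2B genes, Hist1h2bq and Hist3h2ba, had 254 and 11 reads in all and standard errors above 1. The counts of Hist1h2bq, with 1.74% of its 31-base stretches its own, were 0, 0 and 77.4 in scramble vehicle.

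The H4 genes covered a wide range, from -2.66 for Hist1h4j to -0.52 for Hist4h4. Hist1h4k (chr13:21750194-21750505) had 770.2, 841 and 906 reads in scramble TGF-β and 199, 189 and 129.7 in H1.0 siRNA TGF-β, a log2 fold change of -2.28 (SE 0.18, adjusted p = 5.1e-06). Hist1h4f was lower at -2.09 and Hist1h4a at -1.78 on the log2 scale. Hist1h4h (chr13:23531050-23531519), by contrast, had 1205, 1386 and 1425 against 756, 755 and 657, a log2 fold change of -0.89 (SE 0.10, adjusted p = 3.9e-05). Hist1h4d, which held more reads than the other H4 genes, went from 2171, 2213 and 2189 to 1544, 1423 and 1349 reads (log2 fold change -0.61, SE 0.07, adjusted p = 4.9e-05). Hist1h4m at -0.64 (SE 0.16, adjusted p = 0.01) and Hist1h4i at -0.76 (SE 0.20, adjusted p = 0.011) lay just above the limit and were not called, and both were called with the replicate number as a block, which gave 50 lowered genes in all. The H4 genes encode the same protein or nearly so, and the less lowered ones included those with the most reads.

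**Figure D2:**
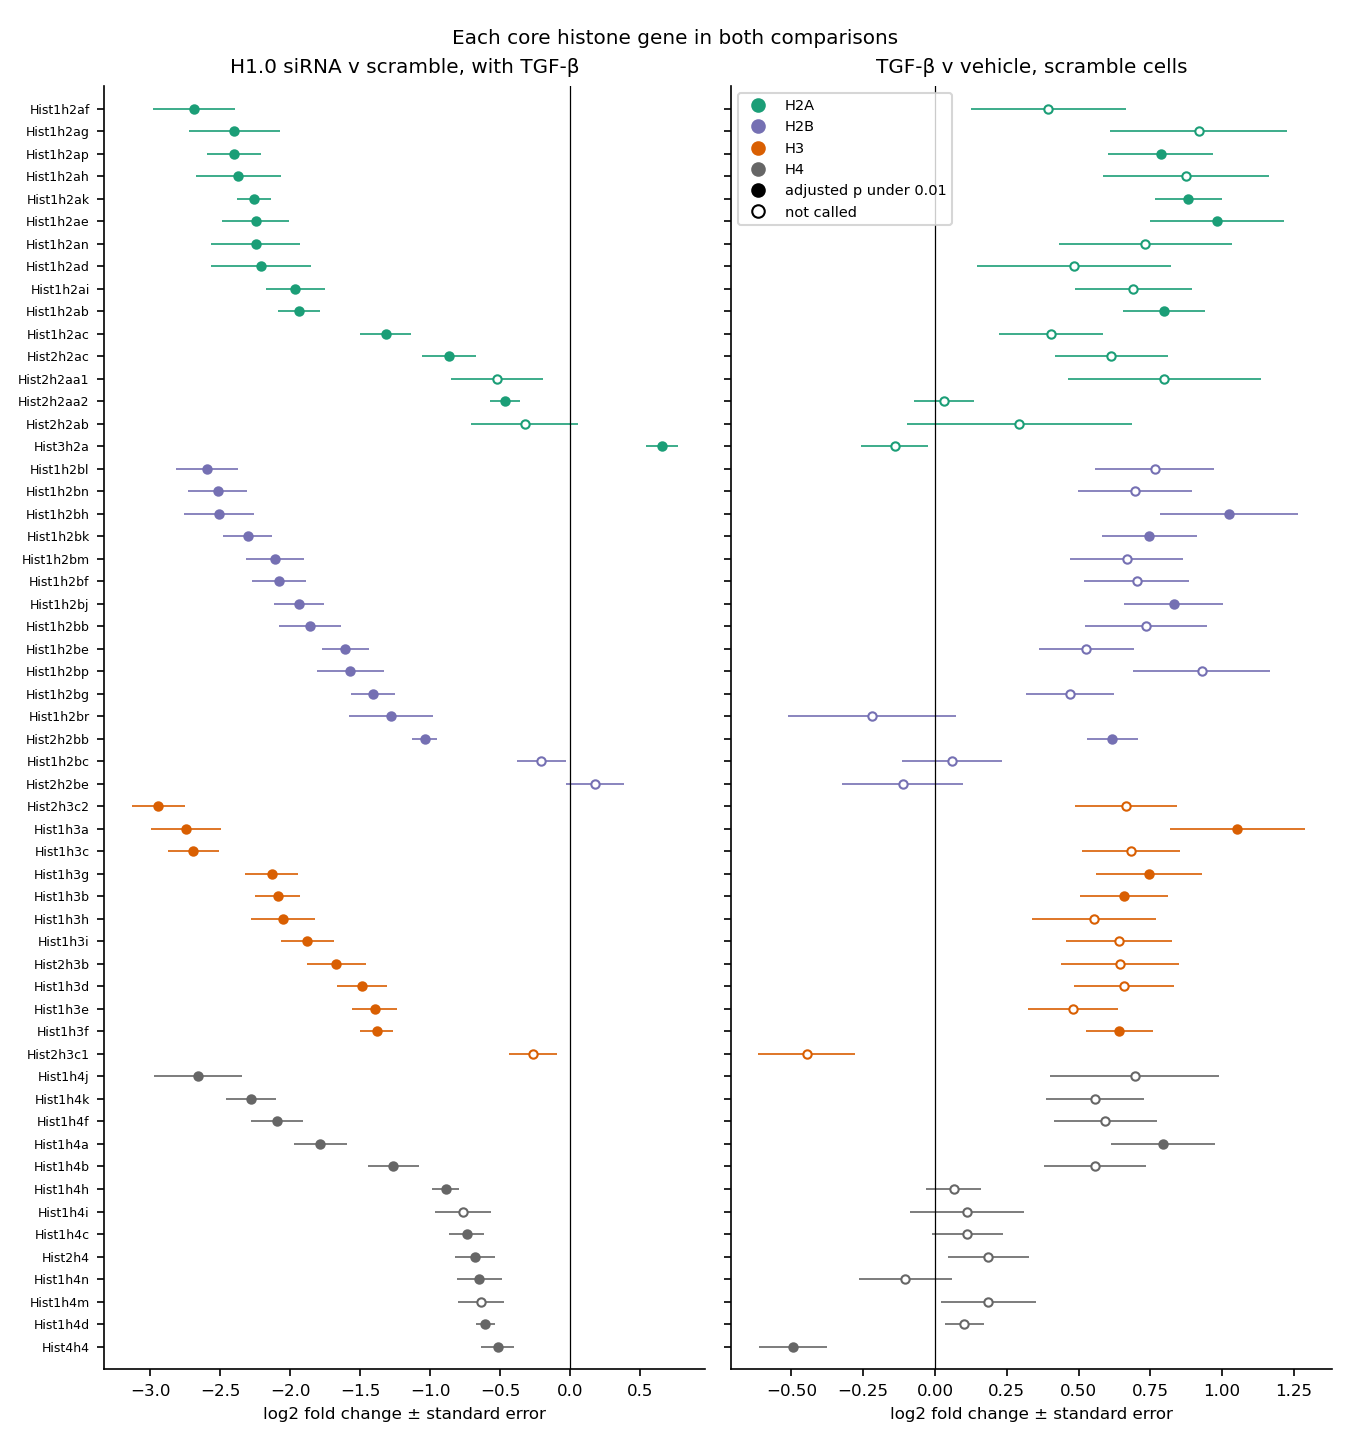
Log2 fold change with its standard error for 56 of the 59 core histone genes, with H1.0 siRNA against scramble under TGF-β (left) and with TGF-β against vehicle in scramble cells (right). Rows are genes, ordered within each histone type by the left panel, colors give the type and filled points an adjusted p under 0.01. The 3 genes with a standard error above 1, Hist1h2ao, Hist1h2bq and Hist3h2ba, are left out, and Hist3h2a is the 1 filled point to the right of 0 in the left panel.

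A few genes went against the rest. Hist3h2a (chr11:58954685-58956830), the H2A gene of the Hist3 cluster, had 414, 439 and 373 reads in scramble vehicle, 348, 376 and 388 in scramble TGF-β, 582, 509 and 696 in H1.0 siRNA vehicle and 589, 545 and 624 in H1.0 siRNA TGF-β. All 6 siRNA libraries were above all 6 scramble libraries. Its log2 fold change with the siRNA was 0.66 (SE 0.11, adjusted p = 9.3e-04) with TGF-β and 0.55 (SE 0.11, adjusted p = 0.003) with vehicle. Its annotated transcript is 2146 bases long and runs 1643 bases past the stem-loop, and with transcripts over 700 bases left out it was not measured. Trim17, which overlaps it on the same strand, had 47 reads in all libraries together, against 6106 for Hist3h2a. The call of Hist3h2a with vehicle was lost without scramble vehicle replicate 1 or 3 or without H1.0 siRNA vehicle replicate 3. Hist4h4 (chr6:136801553-136804415), an H4 gene outside the other clusters, had 306, 285 and 259 reads in scramble vehicle, 193, 212 and 199 in scramble TGF-β, 201, 240.3 and 211 in H1.0 siRNA vehicle and 153, 145 and 124 in H1.0 siRNA TGF-β. It was lower with TGF-β in scramble cells (-0.50, SE 0.12, adjusted p = 0.0083) and in siRNA cells (-0.63, SE 0.12, adjusted p = 0.0026), and lower with the siRNA under TGF-β (-0.52, SE 0.12, adjusted p = 0.0054). The call with the siRNA under TGF-β was lost in 6 of the alternative settings, and that with TGF-β in siRNA cells in 2. In 12 fits that each left out 1 library, the call of Hist4h4 with TGF-β in scramble cells held in 3, those without scramble vehicle replicate 3, H1.0 siRNA vehicle replicate 2 or H1.0 siRNA TGF-β replicate 3.

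**Figure D3:**
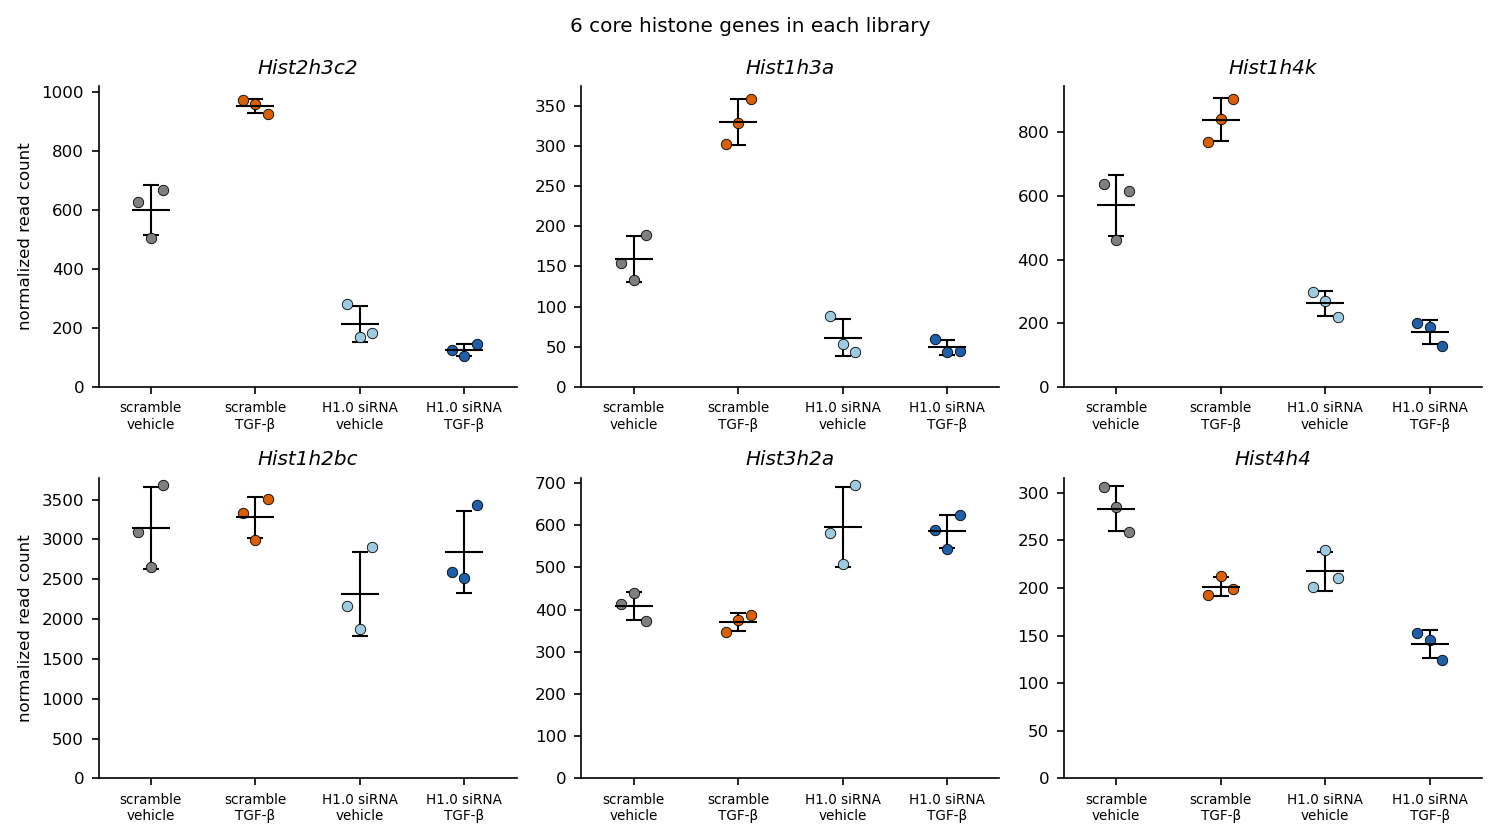
Normalized read counts (vertical axis) of 6 core histone genes in each library, with the mean and SD of 3 libraries per group. Hist2h3c2, Hist1h3a and Hist1h4k are higher in scramble TGF-β than in any other group and low in both siRNA groups, the groups of Hist1h2bc overlap, Hist3h2a is higher in the siRNA libraries, and Hist4h4 is lowest in H1.0 siRNA TGF-β.

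With vehicle, H1.0 siRNA lowered 29 of the 59 genes and raised 1, Hist3h2a, against 11.2% of all genes lower and 13.4% higher, with a median log2 fold change of -0.81. In 37 genes the siRNA libraries all lay below the scramble libraries, against 22.4% of all genes. The 29 genes were all lower with the siRNA under TGF-β too, and 19 further genes were called under TGF-β and not with vehicle, in comparisons that share no libraries. Whether the siRNA effect differed with and without TGF-β is tested by the interaction given below. Hist1h2af went from 169, 133 and 184 reads in scramble vehicle to 55.1, 54.5 and 32.5 in H1.0 siRNA vehicle, a log2 fold change of -1.79 (SE 0.29, adjusted p = 5.9e-04). Hist1h2ag (-1.57), Hist1h4j (-1.56), Hist2h3c2 (-1.50) and Hist1h3c (-1.42) followed, each with siRNA libraries below all scramble libraries. By type, 8 of 17 H2A, 10 of 17 H2B, 7 of 12 H3 and 4 of 13 H4 genes were lower. The most abundant genes of type H2A and H4 were not called, Hist2h2aa2 at -0.07 (SE 0.11, adjusted p = 0.66) and Hist1h4m at 0.01 (SE 0.16, adjusted p = 0.99). Without H1.0 siRNA vehicle replicate 3 the number of lowered genes was 18. With the replicate block it was 34, with Hist1h2bc, Hist1h2bg, Hist1h3h, Hist1h3i and Hist2h3c1 added.

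TGF-β raised 13 of the 59 genes in scramble cells and lowered 1, Hist4h4, against 10.5% of all genes higher and 7.94% lower. The log2 fold change was above 0 in 52 of the 59 genes, with a median of 0.64. In 40 genes all TGF-β libraries were above all vehicle libraries, against 23.6% of all genes. The raised genes were 4 of type H2A, 4 of type H2B, 4 of type H3 and 1 of type H4. Hist1h3a had 155, 133 and 189 reads with vehicle and 302, 328 and 359 with TGF-β, a log2 fold change of 1.05 (SE 0.23, adjusted p = 0.006). Hist1h2bh had 107, 124 and 149.8 against 201, 281 and 292, a log2 fold change of 1.02 (SE 0.24, adjusted p = 0.0075). In both genes every TGF-β library was above every vehicle library. Hist1h2ae (0.98), Hist1h2ak (0.88) and Hist1h2bj (0.83) followed. The genes with the most reads overlapped or barely separated, with Hist1h2bc at 0.06 (SE 0.17, adjusted p = 0.83), Hist2h2aa2 at 0.03 (SE 0.11, adjusted p = 0.86) and Hist1h4h at 0.07 (SE 0.10, adjusted p = 0.66). All 13 raised genes were lower with the siRNA under TGF-β, a comparison that shares the scramble TGF-β libraries. With the replicate number as a block, 21 genes were higher and 2 lower. Leaving out a single library could lower the count of raised genes. It was 2 when scramble vehicle replicate 2 was dropped, 3 when replicate 1 of that group was, 4 for scramble TGF-β replicate 2 and 5 for replicate 3 of that group.

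In H1.0 siRNA cells TGF-β raised 0 of the 59 genes and lowered 3, all of type H4, against 9.14% of all genes higher and 6.6% lower (edgeR). At an unadjusted p under 0.05, 0 were higher and 22 lower, against 18.9% of all genes lower, DESeq2 called 0 higher and 7 lower, and the replicate block gave 1 higher, Hist1h2bc, and 6 lower. The median log2 fold change was -0.36. Hist1h4h had 1276, 1115 and 1007 reads with vehicle and 756, 755 and 657 with TGF-β, a log2 fold change of -0.65 (SE 0.10, adjusted p = 6.9e-04). Hist1h4d had 1953, 1796 and 1732 against 1544, 1423 and 1349, a log2 fold change of -0.34 (SE 0.07, adjusted p = 0.0035). Hist4h4, the last of the 3, is given above. The count of lowered genes was 1 without H1.0 siRNA vehicle replicate 2 and 1 without H1.0 siRNA TGF-β replicate 3. In 18 genes all TGF-β libraries were below all vehicle libraries, against 21.1% of all genes, and in 0 were they above, against 21.5%.

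Of the 59 genes, 47 had a TGF-β effect above 0 in scramble cells and below 0 in siRNA cells. In 11 of these the groups overlapped on neither side, a pattern of 0.627% of all genes. The interaction subtracts the TGF-β effect in scramble cells from that in siRNA cells on the log2 scale. It had a median of -0.91 over the 59 genes and was below 0 in 52. No member passed it at an adjusted p under 0.01 (0 of 59 with edgeR, against 0.0333% of all genes higher and 0.0111% lower). At an unadjusted p under 0.05, 43 of the 59 were below 0, against 6.03% of all genes. With the replicate block 2 passed, Hist1h2ak and Hist2h3c2, and with DESeq2 18. Hist1h2ak had 197, 177 and 226 reads in scramble vehicle, 377, 369.5 and 361 in scramble TGF-β, 102.3, 85.2 and 88.7 in H1.0 siRNA vehicle and 78.4, 74.0 and 79.2 in H1.0 siRNA TGF-β, an interaction of -1.14 (SE 0.17, adjusted p = 0.023). Hist2h3c2, with 627, 506 and 669 and 282, 170.5 and 184 reads in the vehicle groups, had an interaction of -1.44 (SE 0.26, adjusted p = 0.042). Both genes were highest in scramble TGF-β and lowest in H1.0 siRNA TGF-β.

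**Figure D4:**
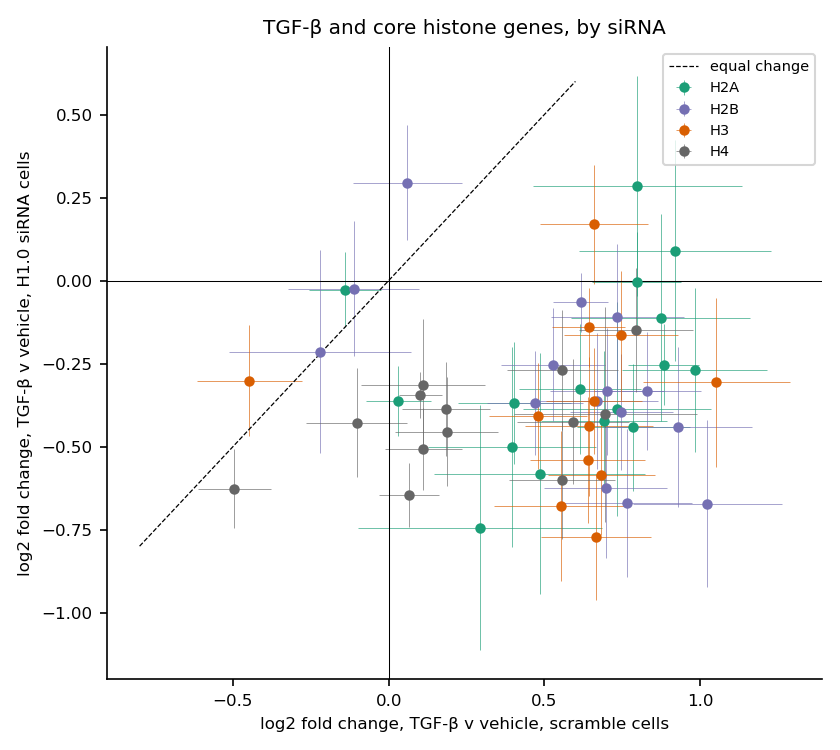
Change of TGF-β against vehicle (log2) in scramble cells (horizontal axis) and in H1.0 siRNA cells (vertical axis) for 56 of the 59 core histone genes, 1 point per gene with its standard errors, colored by histone type. The dashed line marks equal change. Most points lie right of 0 and below 0. The 3 genes with a standard error above 1 are left out.

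The siRNA values were set out by the length of the gene models, with no test between the classes. For the 39 genes whose longest model is at most 700 bases, about as long as a core histone mRNA ending at the stem-loop, the summed reads were 64.0% lower with the siRNA under TGF-β, from 19766 ± 1167 to 7125 ± 959 (SD, n = 3). For the 20 genes with longer models they were 38.5% lower, from 12629.7 ± 585 to 7766 ± 413. Transcripts of at most 700 bases held 55.7% ± 0.127 of the core histone reads in scramble vehicle, 61.0% ± 0.684 in scramble TGF-β, 52.2% ± 3.18 in H1.0 siRNA vehicle and 47.7% ± 4.58 in H1.0 siRNA TGF-β (SD, n = 3). The scramble TGF-β libraries lay above all others. Of the 22 genes whose model ends within 100 bases of the stem-loop, 19 were lower with the siRNA and TGF-β (median log2 fold change -1.94), as were 14 of 18 whose model runs further (median -1.39), 11 of 12 whose model has no 3′ untranslated region (median -2.25) and 4 of 7 with such a region but no stem-loop (median -1.28). Reads were assigned to these models by the quantification, and the 3′ ends of the RNAs themselves were not read.

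By cluster, 41 of 46 Hist1 genes were lower with the siRNA and TGF-β (median log2 fold change -1.95), against 6 of 10 Hist2 genes (median -0.60). The difference between clusters was not tested, since genes of a cluster are not replicates. Within Hist1 the genes at both ends of the cluster gave like values, with 23 of 24 genes after the widest gap in the cluster lower (median -1.82) and 18 of 22 before it (median -2.08). Genes were lower both with more and with less sequence of their own: of the 37 genes with over 30% of their own 31-base stretches 30 were lower and 1 higher (median -1.57), and of the 22 others 18 were lower (median -2.01). Of the 59 genes, 20 are overlapped by an annotated gene on the other strand. The strand setting of the quantification was not given in the sources used here, and without strand the reads of a gene and of its antisense partner cannot be told apart.

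Genes that act with the core histones were read in the same fit, from lists chosen with earlier results of these data known. Of 50 DNA replication and S-phase genes, 37 rose with TGF-β in scramble cells (median log2 fold change 0.71) and 3 in siRNA cells, against 10.5% and 9.14% of all genes. The first count was 18 without scramble vehicle replicate 1, 20 with its replicate 2 left out and 22 with scramble TGF-β replicate 3 left out. Under TGF-β, 43 were lower with the siRNA (median -1.43), against 11.3% of all genes. Pcna, the sliding clamp of DNA polymerases, had 1641, 1729 and 1976 reads in scramble vehicle, 2931, 2992 and 3333 in scramble TGF-β, 1244, 1087 and 1173 in H1.0 siRNA vehicle and 1141, 1134 and 1168 in H1.0 siRNA TGF-β. Its 3 scramble TGF-β libraries were above all others. Rrm2, a subunit of ribonucleotide reductase, was at 1.18 on the log2 scale with TGF-β in scramble cells and at -2.70 with the siRNA and TGF-β, and Mcm3, of the replicative helicase, 1.04 and -2.34. Rrm1, the other subunit of ribonucleotide reductase, was higher with TGF-β in siRNA cells too (0.87, SE 0.18, adjusted p = 0.0047). This Rrm1 call was lost in 4 of the alternative settings, and that with TGF-β in scramble cells in 7. Of 31 mitosis genes, 31 were lower with the siRNA under TGF-β (median -2.09) and 29 with vehicle, while 1, Mybl2, was higher with TGF-β in scramble cells. The Mybl2 call was lost in 6 of 12 fits that left out 1 library, those without scramble vehicle replicate 1 or 2, any scramble TGF-β library or H1.0 siRNA vehicle replicate 1, and 7 mitosis genes were higher when scramble vehicle replicate 3 was dropped. Mki67, a marker of cycling cells, had 4613 ± 492 reads in scramble TGF-β and 961 ± 142 in H1.0 siRNA TGF-β (SD, n = 3), a log2 fold change of -2.26 (SE 0.18, adjusted p = 4.7e-06). The core histone genes were lower beside the S-phase and mitosis genes. Whether fewer cells were in S phase or each such cell held less histone mRNA cannot be told apart.

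The 25 genes of histone mRNA processing and the histone locus body include the cyclin E kinase that acts on NPAT. With the siRNA under TGF-β, 4 were higher and 9 lower (median log2 fold change 0.00), against 13.0% and 11.3% of all genes. The count of higher genes was thus near the share of all genes. With TGF-β in scramble cells 11 rose, against 10.5% of all genes. Slbp had 875, 892 and 1087 reads in scramble vehicle, 1506, 1481 and 1677 in scramble TGF-β, 1065, 966 and 1113 in H1.0 siRNA vehicle and 1054, 1059 and 1035 in H1.0 siRNA TGF-β. It was higher with TGF-β in scramble cells (0.71, SE 0.09, adjusted p = 2.8e-04) and lower with the siRNA under TGF-β (-0.57, SE 0.09, adjusted p = 5.3e-04), and its values with vehicle differed by 0.14 (SE 0.09, adjusted p = 0.26) with the siRNA. Npat and Casp8ap2 were lower with the siRNA both with and without TGF-β, Npat by a log2 fold change of -0.89 and Casp8ap2 of -0.85 with TGF-β. Ccne1 and Ccne2, the E-type cyclins, had log2 fold changes of -2.32 and -2.43. Lsm11, a subunit of the U7 particle that cuts histone pre-mRNA, went the other way (0.63, SE 0.10, adjusted p = 4.2e-04), as did Hinfp, a regulator of H4 genes (0.48, SE 0.08, adjusted p = 5.4e-04). The E2f1 log2 fold change was -0.10 (SE 0.09, adjusted p = 0.43) with the siRNA and TGF-β. With the siRNA and vehicle E2f1 was called higher, a call lost in 4 of the alternative settings.

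Of 25 core histone chaperones, 12 were lower and 2 higher with the siRNA under TGF-β (median -0.33), against 11.3% and 13.0% of all genes. Chaf1a and Chaf1b, subunits of the factor that loads H3 and H4 on new DNA, were lower with log2 fold changes of -1.41 and -1.92, as was Nasp, which binds free H3 and H4, at -1.05. Hira, which places H3 outside S phase, was higher (0.28, SE 0.06, adjusted p = 0.0029), a call lost without scramble TGF-β replicate 1 or H1.0 siRNA TGF-β replicate 2. Also higher was Nap1l1 (1.10, SE 0.09, adjusted p = 7.9e-06), a chaperone of H2A and H2B. Of the 5 replication-dependent linker histone genes 3 were lower, with Hist1h1a at -2.81 (SE 0.25, adjusted p = 1.1e-05). Of 9 replacement core histone variants, whose genes are expressed outside S phase too, 5 were lower (median -0.54). H3f3a went from 5194, 5055 and 5033 to 2508, 2762 and 2110.3 reads, a log2 fold change of -1.05 (SE 0.09, adjusted p = 6.0e-06), while H3f3b, which encodes the same protein, was at -0.12 (SE 0.16, adjusted p = 0.61). H2afz was higher with TGF-β in scramble cells (0.69, SE 0.12, adjusted p = 0.0017) and lower with the siRNA and TGF-β (-0.71, SE 0.12, adjusted p = 9.2e-04).

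**Figure D5:**
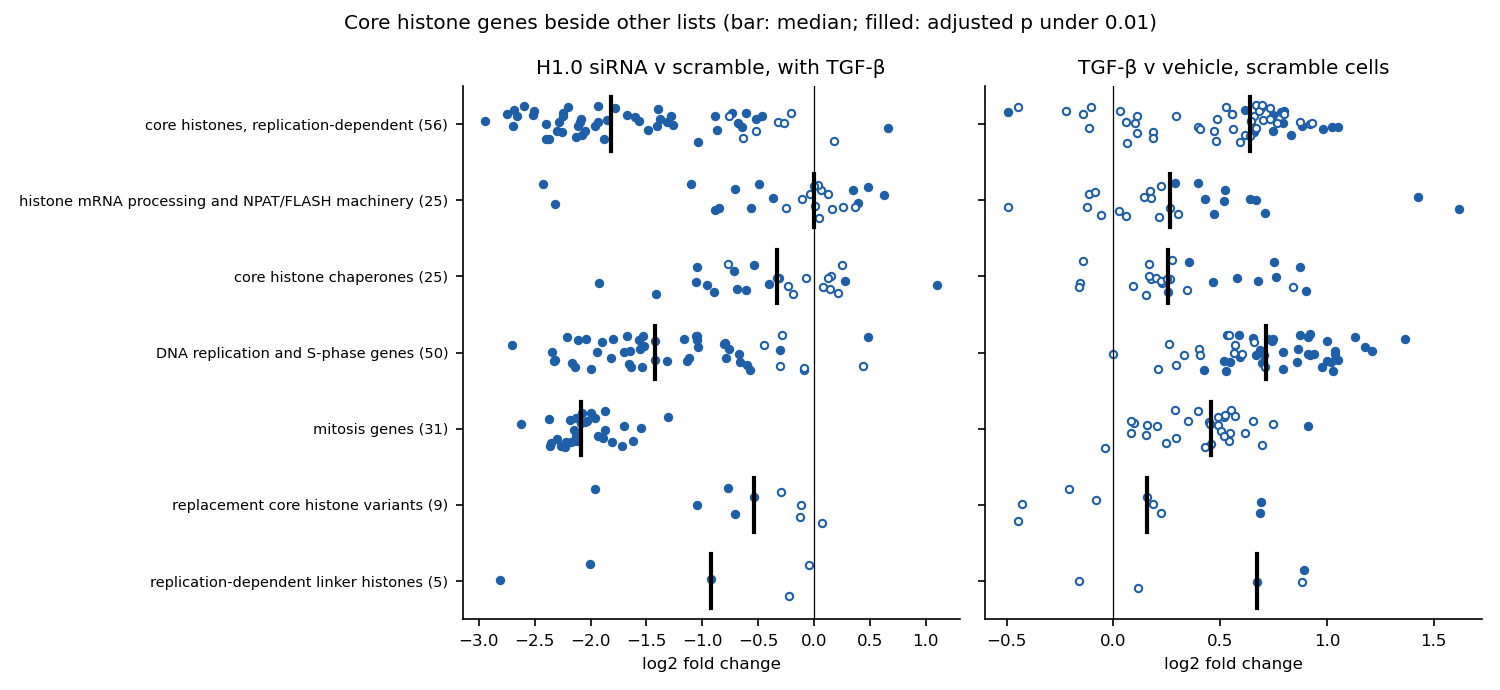
Log2 fold changes of the core histone genes beside 6 other lists, with H1.0 siRNA against scramble under TGF-β (left) and TGF-β against vehicle in scramble cells (right). Each point is a gene, filled at an adjusted p under 0.01, bars give the median, and the number of genes plotted is in parentheses. The median of the mitosis list is the lowest on the left, and those of the core histone and S-phase lists lie at similar values on the right. The 3 core histone genes with a standard error above 1 are left out.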

How the data were processed

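RNA-seq libraries of 12 cultures in 4 groups were analysed. Per the labels and the study's methods, the authors depleted ribosomal RNA, sequenced paired-end reads and ran Salmon on an mm10 index with Ensembl transcripts. The deposited values are estimated counts per transcript, which need not be whole, and TPM, which is scaled to transcript length and library. The annotation used for genes was GENCODE M21. Of 117135 transcripts, 115973 matched it by identifier without version, and held 99.5% to 99.6% of the reads. Estimated counts were summed per gene and rounded.

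The test was edgeR 4.0.16 (R 4.3.3), quasi-likelihood F test, TMM normalization, all 4 groups in 1 fit without covariates, on 18028 genes with at least 10 reads, with Benjamini-Hochberg adjustment over all of them with 0.01 as the limit of the adjusted p. Both limits follow the study, which tested with DESeq2. A normalized read count is the TMM CPM multiplied by the average of the library totals. Standard errors were had from the log2 fold change and F, as the absolute value of the former over the root of the latter. Library totals of 19.9 to 36.3 M set the precision of low counts, and intervals of counting error were not used. The test was tried on simulated counts of these genes. Same-numbered libraries deviated together (correlation of deviations from group means from 0.20 to 0.64, median 0.49). The median of -0.26 for unlike numbers is no separate baseline, since deviations from the mean of 3 libraries sum to 0. The labels' replicate numbers were therefore taken to pair the libraries. The printed p-values and standard errors are from the fit without this pairing, and the blocked count of members is given where it changes a call. Replicates all differed by more than counting noise.

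The members and lists were chosen with earlier results of these data known. Genes named were the 3 highest by TPM of each type, up to 5 called members per comparison and direction with the widest fold change and a mean of 30 or more counts in whichever group was higher, up to 3 called genes per list with a mean count of at least 100, and a few set genes such as Slbp and Pcna. The remaining members, uncalled ones among them, were named after their values were seen. Alternatives tried were DESeq2 1.42.0, RLE scaling, TMM without the 1% most abundant genes, scaling by the library total, deposited TPM, no filter and filterByExpr, the replicate block, thinning to the lowest total, transcripts of at most 700 bases, a length limit of 1000 bases, and leaving out each library. Promoters are from RefSeq. Protein sequences and the genome itself were not used here.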

Additional observations from a re-analysis of the deposited data

Results flagged for a closer look

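With TGF-β, the summed reads of all core histone genes were higher in every scramble library and lower in every siRNA library than in the vehicle libraries of the same siRNA, with log2 ratios of 0.38 and -0.26. The same held for H2A (0.45 and -0.26), H3 (0.56 and -0.38) and H4 (0.21 and -0.45) and for the Hist1 (0.42 and -0.25) and Hist2 (0.27 and -0.33) clusters. On TPM, however, the H2A sums of siRNA cells overlapped, at 583 to 799 with vehicle and 428 to 602 with TGF-β. The difference between the TGF-β ratios of these sums was not tested. Of single core histone genes, 11 had this pattern without overlap on either side, against 0.627% of all genes, and 0 passed the test of the difference with edgeR (43 of the 59 genes at an unadjusted p under 0.05, and 18 with DESeq2). Among the S-phase genes, Mcm4 and Wdr76 passed it, with an interaction of -1.22 and -1.42 on the log2 scale. Both calls were lost in 10 of the 12 fits that left out 1 library, and held without scramble vehicle replicate 3 or H1.0 siRNA vehicle replicate 3.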

How the results depend on the processing

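With H1.0 siRNA and TGF-β the number of lowered core histone genes stayed within 1.5 times of 48 under every alternative, and leaving out 1 library gave 42 to 49. The cause of the changes listed here was not tested. DESeq2 called 28 genes higher with TGF-β in scramble cells, 7 lower in siRNA cells and 18 below 0 for the interaction, against 13, 3 and 0. The fit with the replicate number as a block called 21 higher and 2 lower in scramble cells, 1 higher and 6 lower in siRNA cells and 2 for the interaction. It changed no call of the members from called to not called. The lowered gene in scramble cells (1) was at 0 without the filter on low counts, after thinning and with transcripts of at most 700 bases. With filterByExpr 5 genes were lower with TGF-β in siRNA cells, and with transcripts of at most 700 bases 1 was. With those short transcripts 0 genes were higher with the siRNA, with or without TGF-β, since Hist3h2a was not measured. Leaving out 1 library gave 2 to 18 higher and 0 to 1 lower genes with TGF-β in scramble cells, 1 to 4 lower in siRNA cells, and 0 to 1 higher and 18 to 32 lower with the siRNA and vehicle.

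The log2 ratios of the sums for the siRNA with TGF-β were on TPM -1.47 over all genes, -1.48 for H2A, -1.52 for H2B, -2.06 for H3 and -1.26 for H4, and on transcripts of at most 700 bases -1.47, -1.28, -1.77, -2.11 and -1.16, against -1.12, -1.08, -1.03, -1.80 and -0.94 on all reads. For the siRNA with vehicle, TPM gave -0.60 over all genes, -0.59 for H2A and -0.43 for H4, and short transcripts -0.49 for H2A. For TGF-β in siRNA cells, TPM gave -0.45 over all genes, -0.40 for H2A, -0.24 for H2B, -0.55 for H3 and -0.57 for H4, short transcripts -0.39 over all genes and -0.32 for H2B, and the library total -0.38 for all genes and for H2A, where that scaling moved the median of all genes tested by -0.12. H2B was at 0.02 for TGF-β in siRNA cells on all reads, so that its direction on all reads differs from that on short transcripts and on TPM. For TGF-β in scramble cells, short transcripts gave 0.68 for H2B and 0.51 over all genes. The Hist3 sum with the siRNA and TGF-β, 0.65, turned to -2.94 on short transcripts, where only Hist3h2ba with 11 reads is left. With a limit of 1000 bases, short transcripts held 63.0%, 67.9%, 60.4% and 54.8% of the reads in scramble vehicle, scramble TGF-β, H1.0 siRNA vehicle and H1.0 siRNA TGF-β. For the calls of named genes, 3389 of the refits kept the direction and the call, 235 lost the call and 0 turned. Depth limits Hist3h2ba, which had 11 reads in all.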
